A study of Mus musculus with 38 samples.

Results

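Pou3f1 is a POU-domain transcription factor, also called Oct6, SCIP or Tst-1, that binds the octamer motif. It is described here in tumor cells of the MMTV-PyMT mammary cancer model, in which the mouse mammary tumor virus promoter drives the polyoma middle T antigen in mammary epithelium. The members were every non-control probe named Pou3f1 or one of its older names, Otf6, Oct6 and Scip. That gave 1 probe of 41174 and 1 gene of 28781. The gene was chosen because its level was high in residual tumors, so its levels in the chemotherapy arrays are a description and carry no test.

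All 38 samples were GFP-positive cells sorted from outgrowths of focal hyperplasias. The hyperplasias were taken from bitransgenic females (MMTV-PyMT;actin-GFP) at 3 weeks of age and placed in cleared mammary fat pads of FVB/n females of the same age. Because actin-GFP marks every cell of the transplanted donor tissue, the sort does not by itself select epithelium. In the chemotherapy experiment, 6 samples came from untreated tumors (titled Control), 6 from residual tumors (titled Regressed tumor) taken 10 days after the first dose of TAC, and 4 from relapsed tumors (titled Resistant tumor) taken 10 days after the fourth dose. TAC combines docetaxel, doxorubicin and cyclophosphamide, and was started at the early carcinoma stage. In the progression experiment no mouse received chemotherapy: 5 samples came from adenomas (5-week outgrowths), 6 from carcinomas (18-week outgrowths), 6 from disseminated cells in the lungs of mice with 18-week outgrowths, and 5 from lung metastases. Each disseminated sample pooled the lungs of several mice. The metastases were collected after the primary tumor of an 18-week outgrowth had been removed surgically and the host had developed respiratory distress. The labels do not say whether the samples of a group came from separate donor hyperplasias, so the p-values measure the spread between samples only.

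As background, Pou3f1 is best known from Schwann cells, where it marks the promyelinating stage and, with Sox10, acts ahead of Egr2 (Krox20), the regulator of the myelin genes. It is also expressed in suprabasal keratinocytes of the epidermis and in the epiblast, where it favors neural fates. It has been described in embryonic and neural cells more than in mammary tumors.

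Each array compared a Cy5-labelled sample with a Cy3-labelled Universal mouse reference RNA, and a level below is the normalized log2 ratio of sample to reference. A level of 1 unit higher is a doubling relative to the reference. The progression RNA had an added round of amplification, so each experiment was normalized and tested on its own, and their levels are not set against each other. The Pou3f1 probe is A_51_P511270, a probe of 60 bases at chr4:124103741-124103800 on the + strand in the array design's mm7 build. No annotation of that build was used here, so its place within the transcript is not given. The probe was well above background on all 38 arrays.

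In untreated tumors, Pou3f1 lay between 3.01 and 3.71, with a median of 3.48 and a mean of 3.41 ± 0.32 (SD, n = 6). In the residual tumors it was 6.32, 6.42, 5.44, 5.27, 5.08 and 4.62 in replicates 1 to 6, a mean of 5.52 ± 0.71 (SD, n = 6). All 6 of 6 residual samples were above every untreated sample. On the ratio scale the geometric means were 10.6 and 46.0 times the reference RNA. Residual tumors 1 and 2 were the highest of the 16 arrays, but the size of their lead depended on the normalization between arrays. Without that step, residual tumors 1 to 3 stood at 5.81, 5.97 and 5.79, and the residual SD was 0.50.

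The residual group mean exceeded the untreated mean by 2.12 (SE 0.34), a 4.34-fold difference, and it ranked 11 of 28781 genes by signed difference. For comparison, 28 genes (0.0973% of those tested) were called higher in residual tumors by limma at an adjusted p below 0.05 with a log2 difference of at least 1. Pou3f1 was selected on this contrast, so nothing is read from its place among them. In these sorted but bulk samples, more cells with the transcript and more transcript per cell cannot be told apart.

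The relapsed tumors did not form one level. Pou3f1 was 4.81, 5.45, 3.27 and 4.20 in relapsed tumors 1 to 4, a mean of 4.43 ± 0.93 (SD, n = 4). Relapsed tumor 3 lay inside the untreated range, relapsed tumors 1 and 2 lay inside the residual range, and relapsed tumor 4 lay between both ranges. Thus 3 of 4 relapsed samples were above every untreated sample and 2 of 4 were below every residual sample. The relapsed mean was 1.03 above the untreated mean (0.69 to 1.41 with single samples left out) and 1.09 below the residual mean (0.70 below without relapsed tumor 3 and 1.43 below without relapsed tumor 2). In relapsed against untreated tumors 0.0104% of all genes were called in either direction. Each pair of groups met on 1 slide, with 2 samples against 1. There the residual samples were 3.31 above the untreated one and the relapsed samples 0.41 above the untreated one, but the relapsed samples were 0.51 above the residual one, the opposite direction to the group means. The order of the group means was residual, relapsed and untreated. The SD of Pou3f1 in the relapsed group was larger than that of 98.8% of genes, and in the residual group larger than that of 97.6%, against 79.5% in the untreated group. These ranks include genes near background, as only 50.5% to 64.3% of an array's spots were well above it. They are therefore no comparison with genes of a similar level.

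**Figure D1:**
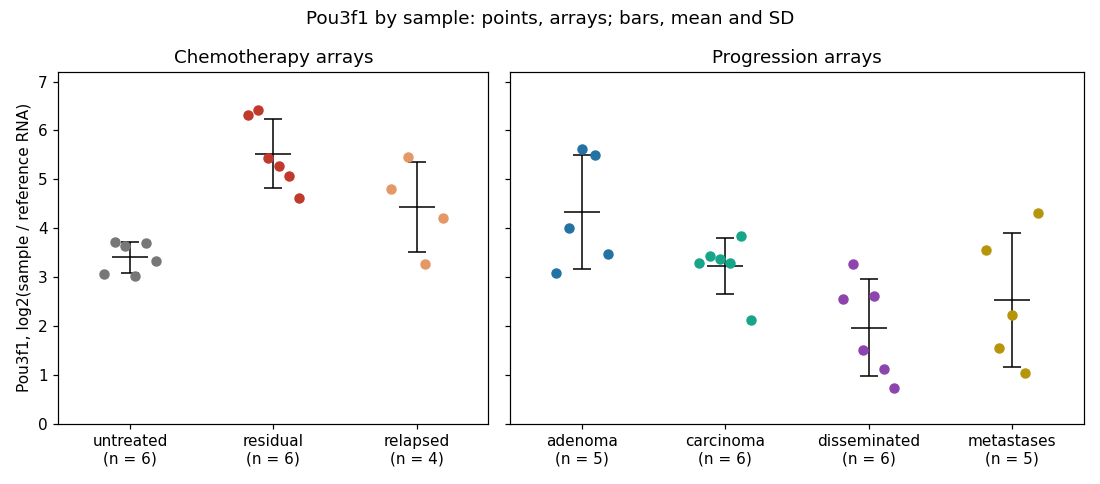
Pou3f1 in each of the 38 arrays as a log2 ratio of sample to reference RNA, in the chemotherapy experiment (left) and the progression experiment (right). Points are arrays and bars are the group mean and SD; all 6 residual samples lie above all untreated ones, relapsed tumors spread from 3.27 to 5.45, and disseminated cells reach the lowest value of 0.73.

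In the progression experiment, whose arrays were not used to choose the gene, Pou3f1 was lower in disseminated cells than in adenomas. The adenomas stood at 3.08, 4.01, 5.62, 5.51 and 3.47 for replicates 1 to 5, a mean of 4.34 ± 1.17 (SD, n = 5). Adenomas 3 and 4 were more than 1 unit above the others. Before normalization, the Pou3f1 sample signal minus background was 2201, 4221, 4268, 4026 and 2783 in adenomas 1 to 5. The array medians of that signal were 237, 212, 68.7, 98.6 and 209. Adenomas 2, 3 and 4 thus had similar Pou3f1 signals, on arrays that were dimmer for adenomas 3 and 4. The part of array brightness in these levels was not tested. In disseminated cells Pou3f1 ranged from 0.73 to 3.28, with a median of 2.03 and a mean of 1.96 ± 0.99 (SD, n = 6). The disseminated group lay 2.37 below the adenomas (SE 0.60, 95% interval -3.63 to -1.12, limma adjusted p = 0.0102), and 5 of 6 disseminated samples were below every adenoma. Among all genes tested, 5.16% were called lower in this comparison.

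Adenomas and disseminated cells shared slides, which allowed the same comparison within each of 3 slides. The difference was -2.66, -2.67 and -2.43 on slides 4, 6 and 5. Slides 4 and 5 held 2 disseminated samples and 2 adenomas each, and slide 6 held 2 and 1. Adenoma 3 was the only adenoma on slide 6, and adenoma 4 was 1 of the 2 on slide 4. Adenomas 3 and 4 also had the smallest shares of spots well above background in the progression experiment, 51.1% and 48.4%, and without both the difference was -1.56 with a limma adjusted p of 0.135. Without adenomas 2 and 3 it was -2.05 with an adjusted p of 0.0737.

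In metastases Pou3f1 spread over the widest range of any group, at 3.56, 1.55, 2.22, 1.03 and 4.30 in replicates 1 to 5, a mean of 2.53 ± 1.37 (SD, n = 5). Metastasis 5 was above 3 of the 5 adenomas, whereas metastasis 4 was below all but the lowest disseminated sample. The metastases lay 1.80 below the adenomas on average, which passed the threshold (SE 0.63, limma adjusted p = 0.0360), where 7.47% of genes tested were called lower. The call was lost when any one of metastases 2, 3 and 4 or adenomas 3 and 4 was left out, with adjusted p up to 0.105, and with the deposited ratios (-1.59, limma adjusted p = 0.0605) or with the replicate number as a block (-1.80, limma adjusted p = 0.0533). Metastases and carcinomas were on slides 1 to 3, and adenomas and disseminated cells on slides 4 to 6, scanned on another day. Slide and group thus cannot be told apart in comparisons across these sets of slides, for Pou3f1 or any other gene.

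Carcinomas were the most even of the 4 groups: 5 of them lay between 3.28 and 3.84, and carcinoma 6 was at 2.11, giving a mean of 3.22 ± 0.58 (SD, n = 6). The remaining comparisons did not pass the threshold. Carcinomas were 1.11 below adenomas (95% interval -2.37 to 0.14, limma adjusted p = 0.293), where 1.6% of all genes were called lower. Disseminated cells were 1.26 below carcinomas (95% interval -2.46 to -0.06, limma adjusted p = 0.114), where 6.07% were called lower. Metastases were 0.69 below carcinomas (95% interval -1.95 to 0.57, limma adjusted p = 0.467), where 4.78% were called lower, and 0.57 above disseminated cells (95% interval -0.69 to 1.82, limma adjusted p = 0.598), where 4.52% were called higher. With single samples left out these last 2 ran from -1.13 to -0.32 and from 0.13 to 0.94, the extremes coming without metastasis 5 and without metastasis 4, and neither passed. Within slides 1, 2 and 3, the difference of metastases from carcinomas was -0.10, -1.03 and -1.43. The order of the means was thus adenoma, carcinoma, metastases and disseminated cells, and no neighbors in that order differed by this test. The intervals leave room for differences of more than 1 log2 unit in each of them.

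**Figure D2:**
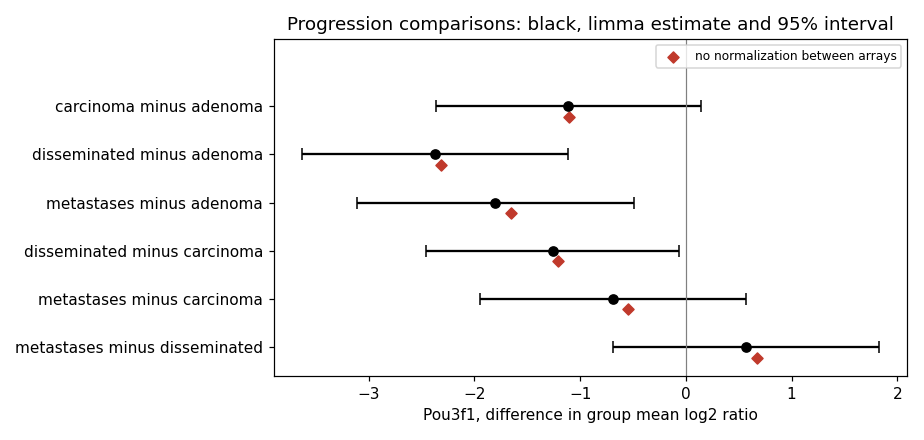
Differences in the mean log2 ratio of Pou3f1 between the progression groups, with the limma estimate and its 95% interval in black and the estimate without normalization between arrays as red diamonds. The intervals of both disseminated cells and metastases against adenoma lie below 0; of the other 4, only that of disseminated cells against carcinoma leaves out 0, and it did not pass after adjustment over all genes.

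Markers of other cell types moved with the progression groups. The mean log2 ratio of 16 macrophage genes lay between -0.21 and 0.47 in adenomas and between 2.95 and 4.56 in disseminated cells, with no overlap, and between 0.83 and 5.07 in metastases. In disseminated cells against adenomas 14 of the 16 macrophage genes were called higher, beside 5.13% of all genes tested, among them Lyz2 (6.71 higher, SE 1.31, limma adjusted p = 0.00233) and Csf1r (4.86 higher, SE 0.90, limma adjusted p = 0.00173). In metastases against adenomas 10 of 16 were called higher, beside 8.32% of all genes. Endothelial genes moved the same way, with 8 of 10 higher in disseminated cells. Of 17 luminal epithelial genes, 3 were lower in disseminated cells (Csn3, Ehf and Elf5) and none was higher, beside 5.16% of all genes called lower. Krt18 averaged 1.14 in adenomas and -0.98 in disseminated cells. Of 10 basal epithelial genes, 2 were lower in disseminated cells, Cnn1 (1.92 lower, SE 0.52, limma adjusted p = 0.0151) and Acta2 (1.09 lower, SE 0.29, limma adjusted p = 0.0136), and 3 were lower in metastases, beside 5.16% and 7.47% of all genes. Their list mean ran from 0.05 to 0.67 in adenomas, from -1.0 to 0.42 in disseminated cells and from -0.61 to 0.25 in metastases.

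Across the 22 arrays, Pou3f1 and the macrophage mean had a Pearson r of -0.70, as a description over arrays that share groups and slides. With the basal mean the r was 0.77, with the epiblast and neural mean 0.74 and with the mean of the other POU genes 0.70. Carcinoma 6 had the lowest Pou3f1 of its group and a macrophage mean of 4.68, where the other carcinomas had at most 0.76. Metastasis 2 had little macrophage signal, at 0.83, and a Pou3f1 level of 1.55, and metastasis 1 had a macrophage mean of 3.33 beside a Pou3f1 level of 3.56. The arrays with the lowest median correlation over all genes with the other arrays of their group were disseminated 6 (0.698), carcinoma 6 (0.768), metastasis 4 (0.777) and disseminated 4 (0.779). The first 3 had the lowest Pou3f1 level of their group, and disseminated 4 had 2.61, above its group's median. The high adenomas 3 and 4 had the lowest such values of the adenomas, 0.873 and 0.883. The part of these markers and of these arrays in the Pou3f1 levels was not tested.

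In the chemotherapy experiment limma called no macrophage, endothelial, fibroblast, T and NK cell, basal or luminal gene of the lists between untreated and residual tumors. At an unadjusted p below 0.05, 2 of 16 macrophage and 2 of 10 endothelial genes were lower in residual tumors, and 0 of 17 luminal and 0 of 10 basal genes passed, beside 9.04% of all genes. Of 15 T and NK cell genes, 4 were higher and 0 lower at that cut, 26.7% of the list. The difference was positive for 2 of 16 macrophage genes, with a list median of -0.70 against -0.00 over all genes. The part of these cells in the Pou3f1 levels was not tested. The macrophage mean ran from -0.05 to 2.31 in untreated and from -0.25 to 1.56 in residual tumors, and its r with Pou3f1 over the 16 arrays was -0.14. The luminal mean lay between 3.92 and 4.30 in untreated and between 3.90 and 4.34 in residual tumors. The labelled mammary origin therefore had its markers at similar levels in both groups: Epcam averaged 4.39 and 4.35, and Krt8 3.38 and 3.52.

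**Figure D3:**
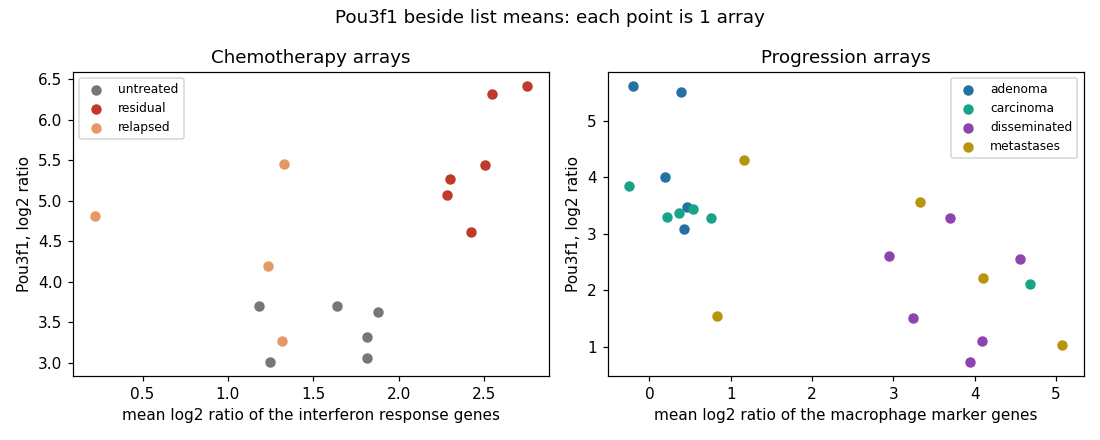
Pou3f1 (vertical axis, log2 ratio) against the mean log2 ratio of the interferon response genes in the 16 chemotherapy arrays (left) and of the macrophage marker genes in the 22 progression arrays (right); each point is 1 array. Relapsed tumors 1 and 2 combine a high Pou3f1 with a low interferon mean, and carcinoma 6 lies among the disseminated cells and metastases at 4.68 on the macrophage axis.

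Of 13 other POU genes on the array, limma called none in any chemotherapy comparison. At an unadjusted p below 0.05, 1 of 13 passed between residual and untreated tumors, beside 9.04% of all genes, and the median difference of residual from untreated tumors was -0.02. Within class III, the subfamily of Pou3f1, Pou3f2 and Pou3f4 were below the limit for a well-detected signal on all 16 chemotherapy arrays, so no level is given for them. Pou3f3 (Brn1), a neural and kidney factor, was well above background on 0 of 6 untreated, 4 of 6 residual and 2 of 4 relapsed arrays, so its level in untreated tumors is only a bound and it is not compared. Pou2f1 (Oct1), the widely expressed octamer factor, stayed between means of 0.04 and 0.07 over the 3 chemotherapy groups. Pou5f1 (Oct4), the pluripotency factor, averaged 1.46 ± 0.63 in untreated (SD, n = 6) and 1.38 ± 0.83 in residual tumors (SD, n = 6). Pseudogene copies of Pou5f1 are known, and its probe may not separate them.

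In progression, 3 other POU genes were called lower against adenomas. Pou6f1 was 1.24 lower in disseminated cells (SE 0.37, limma adjusted p = 0.0234). In metastases Pou2f1 was 1.89 lower (SE 0.33, limma adjusted p = 0.000322) and Pou4f1, a sensory neuron factor, 1.15 lower (SE 0.28, limma adjusted p = 0.00495). Thus 1 of 13 and 2 of 13 members were lower, beside 5.16% and 7.47% of all genes. For metastases against adenomas, slide and group cannot be told apart.

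The genes around Pou3f1 on chromosome 4 were not called after chemotherapy. Of 21 genes with a probe within 500 kb, limma called none between untreated, residual and relapsed tumors. At an unadjusted p below 0.05, 3 were higher and 1 was lower in residual than in untreated tumors, 19% of them beside 9.04% of all genes, and the residual minus untreated differences ran from -0.47 to 1.04. The largest was that of Rspo1, a secreted activator of Wnt signaling, and Zc3h12a, an RNase that restrains inflammation, came next at 0.68. The r of these neighbors with Pou3f1 lay between -0.43 and 0.63, the highest being that of the LIM-domain gene Fhl3. Against adenomas, Cdca8, a mitotic chromosome passenger gene, was called lower in disseminated cells, while in metastases 1 neighbor was higher and 2 were lower. Over all genes 5.16% were called lower in disseminated cells, and 8.32% higher and 7.47% lower in metastases, so these counts are near the background.

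The genes of the known Pou3f1 settings were then considered. Of 24 Schwann cell and myelin genes, limma called none in the chemotherapy comparisons, and the median residual minus untreated difference was -0.00 in the list and over all genes. At an unadjusted p below 0.05, 4 were higher and 2 lower in residual tumors, 25% of the list beside 9.04% of all genes. Sox10, which acts upstream of Pou3f1 in Schwann cells, was high in all groups, at 5.43 ± 0.31 in untreated (SD, n = 6), 5.34 ± 0.49 in residual (SD, n = 6) and 5.28 ± 0.50 in relapsed tumors (SD, n = 4), and had an r of 0.03 with Pou3f1. Egr2, the next factor in Schwann cells, averaged 0.29 ± 0.72 in untreated (SD, n = 6), 0.72 ± 0.42 in residual (SD, n = 6) and -0.10 ± 0.38 in relapsed tumors (SD, n = 4) and was not called. Sox2, an early Schwann cell factor, was well above background on none of the 16 arrays.

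The 13 listed genes that regulate Pou3f1 in Schwann cells, including Sox10, the neuregulin receptors Erbb2 and Erbb3, and Nfkb1, were not called by limma after chemotherapy either; 1 was higher and 2 lower in residual tumors at an unadjusted p below 0.05, 23.1% of the list beside 9.04% of all genes. In disseminated cells against adenomas 3 were higher and 1 lower, beside 5.13% and 5.16% of all genes. Zeb2 was 5.44 higher (SE 0.97, limma adjusted p = 0.00137), Nrg1 1.97 higher (SE 0.49, limma adjusted p = 0.0088) and Nfkb1 1.58 higher (SE 0.36, limma adjusted p = 0.00576), and Erbb2 was 1.33 lower (SE 0.40, limma adjusted p = 0.0238). Zeb2 and Nfkb1 are also expressed in myeloid cells, whose markers rose in the same comparison, and their part here was not tested. Egr2 was 2.16 higher in disseminated cells than in carcinomas (SE 0.39, limma adjusted p = 0.000806), beside 5.93% of all genes called higher, in the comparison where the lower Pou3f1 level did not pass the test. In that comparison 9 of 16 macrophage genes were also called higher, and their part in the Egr2 level was not tested. Disseminated cells and carcinomas were on different slides, so slide and group cannot be told apart here.

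Of 25 epiblast and neural induction genes limma called none in the chemotherapy comparisons, and 1 passed an unadjusted p below 0.05 between residual and untreated tumors, 4% of the list beside 9.04% of all genes. Fgf5 and Otx2, both epiblast genes, were above background on none of the 16 arrays. In progression, Zfp521, a zinc finger factor of neural induction, was 2.70 lower in disseminated cells (SE 0.68, limma adjusted p = 0.0096) and 3.36 lower in metastases than in adenomas (SE 0.71, limma adjusted p = 0.00159). Of the 25 genes, 1 was called lower in disseminated cells and 4 in metastases, beside 5.16% and 7.47% of all genes, and 0 were called higher.

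The epidermal genes averaged higher in residual than in untreated tumors, without a call for any of them. Of 27 keratinocyte differentiation genes limma called none between residual and untreated tumors, and their median difference was 0.31 against -0.00 over all genes. At an unadjusted p below 0.05, 7 were higher and 0 lower, 25.9% of the list beside 9.04% of all genes. The list mean ran from 1.17 to 1.42 in untreated, from 1.40 to 2.22 in residual and from 1.31 to 2.20 in relapsed tumors. Krt15, a keratin of basal keratinocytes, averaged 1.08 without treatment, 2.20 in residual tumors and 2.10 on relapse. Klf5, a factor of proliferating epithelium, averaged 1.59, 2.14 and 2.02, and Krt10, the suprabasal keratin, -0.03, 0.43 and -0.05. Tgm1, the transglutaminase that crosslinks the cornified envelope, was high in all 3 groups, at 4.53, 4.94 and 4.73.

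In disseminated cells against adenomas 3 of the 27 were lower: Klf5 by 2.48 (SE 0.54, limma adjusted p = 0.00457), Krt10 by 1.80 (SE 0.40, limma adjusted p = 0.00485) and Tgm1 by 1.55 (SE 0.46, limma adjusted p = 0.0235). That is beside 5.16% of all genes called lower. In metastases Klf5 and Tgm1 were also lower, and Krt16, a keratin of activated keratinocytes, was 1.39 higher (SE 0.38, limma adjusted p = 0.00926). That is 2 of 27 lower and 1 of 27 higher, beside 7.47% and 8.32% of all genes. The median difference of the list in metastases was 0.32, with 17 of 27 genes positive. In disseminated cells it was -0.10 with 11 of 27 positive, and in carcinomas 0.22 with 22 of 27 positive. Over all genes these medians were -0.02, -0.04 and 0.03. The r of Pou3f1 with the list mean was 0.53 over the 16 chemotherapy arrays and 0.56 over the 22 progression arrays, as a description.

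Interferon genes were called higher in residual tumors and lower again in relapsed ones. Of 57 interferon response genes, 9 were called higher in residual than in untreated tumors, beside 0.0973% of all genes, and the median difference was 0.83. Gbp6, an interferon-induced GTPase, was 2.37 higher (SE 0.30, limma adjusted p = 0.00413) and Ubd, a ubiquitin-like modifier, 2.54 higher (SE 0.43, limma adjusted p = 0.0236). In relapsed against residual tumors 21 of 57 were called lower, beside 0.222% of all genes. Gbp6 was 2.99 lower (SE 0.34, limma adjusted p = 0.000758), Ubd 4.24 lower (SE 0.48, limma adjusted p = 0.000758), and Irf1, a transcription factor of the response, 1.67 lower (SE 0.24, limma adjusted p = 0.00325).

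The interferon mean lay between 2.28 and 2.75 in residual, 1.18 and 1.88 in untreated, and 0.22 and 1.33 in relapsed tumors. Relapsed tumor 1 had the lowest interferon mean of the 16 arrays, 0.22, beside a Pou3f1 level of 4.81, inside the residual range. Relapsed tumor 2 had 1.33 beside 5.45. The r of Pou3f1 with the interferon mean was 0.50 over the 16 chemotherapy arrays and -0.07 over the 22 progression arrays.

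The genes whose levels were most like those of Pou3f1 were then ranked by Pearson r in each experiment, among genes well above background on at least 50% of the arrays. These correlations describe arrays that share groups, slides and processing, and they carry no test. Over the 16 chemotherapy arrays and 12769 genes, the highest r belonged to Tent5b (0.90), a non-canonical poly(A) polymerase, Ly6i (0.89), Carmil1 (0.88), a regulator of actin capping, Ecscr (0.87), an endothelial surface protein, and Ly6a (0.87), the stem cell antigen Sca-1. The gene 1600020E01Rik, the transcription factor Myc, the kinase Nuak2, the thiamine transporter Slc19a2 and the ubiquitin ligase Trim69 followed, all with r between 0.85 and 0.87. Across all genes the median r was -0.02, and 21 genes (0.164%) exceeded 0.8. Ranked by Spearman's rho, 6 of these 10 stayed in the top 10.

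Tent5b ran from -0.42 to 0.19 in untreated tumors, was 1.21, 1.49, 0.32, 0.65, 0.71 and 0.94 in residual tumors 1 to 6, and was 0.90, 1.20, -0.24 and 0.38 in relapsed tumors 1 to 4. Tent5b thus placed relapsed tumor 3 with the untreated tumors and relapsed tumors 1 and 2 with the residual ones, as Pou3f1 did. Relapsed tumor 4 was inside the residual range of Tent5b, whereas its Pou3f1 level lay between both ranges. Tent5b was picked for its r over these same arrays, so this likeness follows from the choice and is no separate evidence. Myc averaged -0.73 ± 0.17 in untreated (SD, n = 6), 0.02 ± 0.30 in residual (SD, n = 6) and -0.14 ± 0.31 in relapsed tumors (SD, n = 4), so the relapsed mean was nearer to the residual one. Ly6a, by contrast, averaged -1.50 ± 0.45 in untreated (SD, n = 6), 0.17 ± 0.51 in residual (SD, n = 6) and -1.14 ± 0.56 in relapsed tumors (SD, n = 4). Its relapsed level lay near that of untreated tumors.

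The lowest r belonged to Prdx4 (-0.91), a peroxiredoxin of the endoplasmic reticulum, Mdfic (-0.89), Bpnt2 (-0.88), a Golgi phosphatase, Mtch1 (-0.86), a mitochondrial membrane protein, and Gabrp (-0.86), the pi subunit of the GABA-A receptor and a marker of luminal progenitors. Prdx4 ran from -1.46 to -0.72 in untreated and from -2.14 to -1.69 in residual tumors, and was -1.81, -1.79, -1.03 and -1.49 in relapsed tumors 1 to 4. Relapsed tumor 3 was the one inside the untreated range, but Prdx4 was likewise picked by its r over these arrays. After each group's mean was removed, the highest r belonged to 1600020E01Rik (0.88), Sugp2 (0.85), Rpl39 (0.85), Trpt1 (0.83) and Zbtb12 (0.83). Of the top 10 genes, 2 were also in the top 50 after that step.

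**Figure D4:**
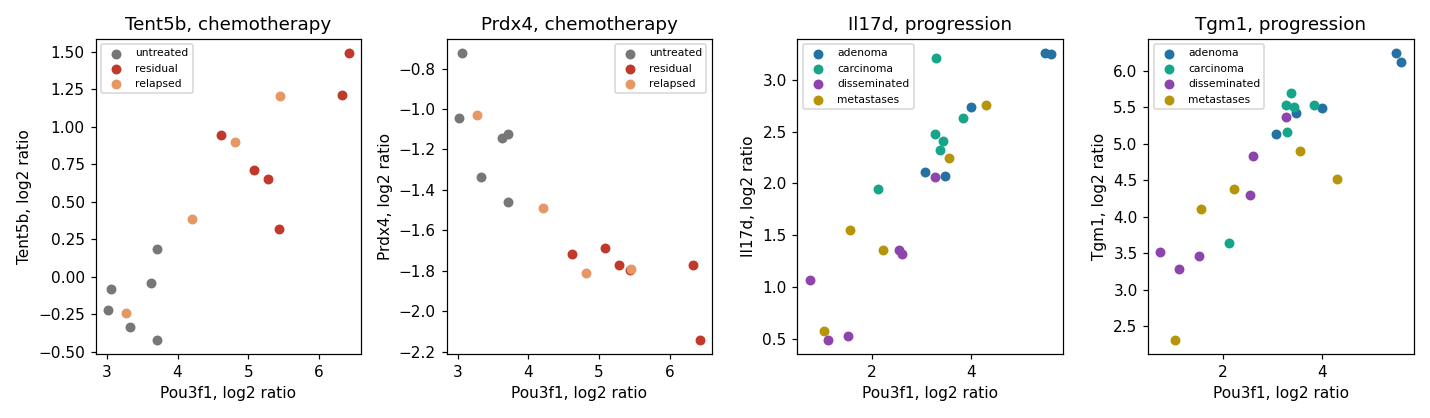
Levels of 4 genes (vertical axes, log2 ratio) against Pou3f1 (horizontal axes, log2 ratio): Tent5b and Prdx4 in the 16 chemotherapy arrays, Il17d and Tgm1 in the 22 progression arrays. Each point is 1 array colored by group. The 4 genes were picked by their r with Pou3f1 over the same arrays, so the alignment in each panel follows from that choice. Relapsed tumor 3 lies with the untreated tumors in both chemotherapy panels.

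Sprr2e, a small proline-rich protein of the cornified envelope, ranked 19 in the chemotherapy arrays (r = 0.80), with means of 0.46 ± 0.10 in untreated (SD, n = 6), 0.77 ± 0.08 in residual (SD, n = 6) and 0.50 ± 0.22 in relapsed tumors (SD, n = 4). It was singled out after its values were seen, because its promoter holds the octamer, ATGCAAAT, which POU factors bind. The window from RefSeq covers 300 bases around the gene's start, at chr3:92351893-92352192 on the + strand of GRCm38.p6, and the capitals mark the motif as it reads on this strand, ATTTGCAT:
Sprr2e: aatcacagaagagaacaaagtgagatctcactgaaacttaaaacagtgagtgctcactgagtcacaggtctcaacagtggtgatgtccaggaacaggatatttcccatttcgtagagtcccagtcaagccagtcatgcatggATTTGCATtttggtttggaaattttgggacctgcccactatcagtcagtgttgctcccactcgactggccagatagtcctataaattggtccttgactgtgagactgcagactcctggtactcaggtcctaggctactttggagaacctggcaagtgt

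Searched on both strands, the octamer was in 570 of 32851 promoters of this length (1.74%). Of the 50 genes with the highest r in the chemotherapy arrays, 35 matched the RefSeq table with 45 promoters, and 2 of these (4.44%) held it, those of Sprr2e and Tmem39b. Of the 50 in the progression arrays, 44 matched with 49 promoters, and 4 (8.16%) held it, those of Asb13, Fntb, Phactr1 and Plppr2. These are counts of letters in a window and no measure of binding.

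Over the 22 progression arrays and 15644 genes, the highest r belonged to Il17d (0.90), a cytokine of the interleukin 17 family, Ada (0.89), adenosine deaminase, Sct (0.88), the hormone secretin, Tgm1 (0.88), Ccnb2 (0.87), a mitotic cyclin, and Nxn (0.86), a thioredoxin-like oxidoreductase. Chtf18, Pimreg, Cenpe and Tdg, genes of chromosome cohesion, mitosis and base excision repair, followed at 0.85 to 0.86. The background was higher than in the chemotherapy arrays, with a median r of 0.10 and 0.741% of genes above 0.8. Il17d averaged 2.68 ± 0.58 in adenomas (SD, n = 5), 2.50 ± 0.42 in carcinomas (SD, n = 6), 1.14 ± 0.59 in disseminated cells (SD, n = 6) and 1.70 ± 0.84 in metastases (SD, n = 5). Among metastases it was 2.24, 1.55, 1.36, 0.58 and 2.76 in replicates 1 to 5, so metastases 1 and 5 were high and metastasis 4 low, as for Pou3f1. Il17d was picked for its r over these same arrays, so this shared order follows from the choice and is no separate evidence.

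Tgm1 averaged 5.68 ± 0.48 in adenomas (SD, n = 5), 5.17 ± 0.77 in carcinomas (SD, n = 6), 4.12 ± 0.85 in disseminated cells (SD, n = 6) and 4.04 ± 1.01 in metastases (SD, n = 5). Carcinoma 6, at 3.64, was the lowest carcinoma for Tgm1 as for Pou3f1, but Tgm1 too was picked for its r over these arrays. The lowest r belonged to Ino80b (-0.90), a subunit of the INO80 chromatin remodeler, Lrch1 (-0.88), Cept1 (-0.87), a phospholipid synthesis enzyme, Ero1b (-0.86), an oxidase of the endoplasmic reticulum, and Gpatch2l (-0.85). After the group means were removed, the highest r belonged to Ppp5c (0.90), a serine/threonine phosphatase, Il17d (0.87), Timp4 (0.87), a metalloproteinase inhibitor, Siva1 (0.86) and Dhdds (0.86). Of the top 10 genes, 7 were also in the top 50 after that step. Without adenomas 3 and 4, Il17d kept an r of 0.88, and 3 of the 10 stayed in the top 10.

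The genes most like Pou3f1 after chemotherapy were looked up in the progression arrays. Of the 50 highest in the chemotherapy arrays, 31 had an r above 0 in the progression arrays, where 56.2% of all genes did, and their median r was 0.20, against 0.11 over all genes measured in both. Of the 50 highest in the progression arrays, 47 were measured in chemotherapy, where 17 had an r above 0 and the median was -0.11, against -0.02 over all genes. No gene was in the top 50 of both. Of the 10 highest in chemotherapy, Tent5b had an r of 0.51 in progression, Myc 0.47, Slc19a2 0.43, Ecscr 0.40, Ly6a 0.24, Trim69 0.14, Carmil1 0.10, Nuak2 -0.04, Ly6i -0.22 and 1600020E01Rik -0.45. Il17d, highest in progression, averaged 2.30, 2.30 and 2.28 over the chemotherapy groups, with an r of -0.04. Sohlh2, a germ cell transcription factor named after its values were seen, had an r of 0.85 in chemotherapy and 0.75 in progression. Myc was lower than in adenomas in all other progression groups, by 1.97 in carcinomas (SE 0.34, limma adjusted p = 0.0018), 1.23 in disseminated cells (SE 0.34, limma adjusted p = 0.0163) and 2.39 in metastases (SE 0.35, limma adjusted p = 9.74e-05). Only the disseminated cells shared slides with the adenomas, so for carcinomas and metastases slide and group cannot be told apart.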

How the data were processed

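Sorted tumor cells were profiled on Agilent whole mouse genome 2-colour arrays, 38 in all. The deposited scanner files, made by the authors with Agilent Feature Extraction 10.7, give each spot's signal and local background as an intensity per channel. The deposited value table holds the authors' log2 ratios and was used as an alternative. Per the study's methods, arrays were corrected with normexp, normalized by loess within and quantile between arrays. The same steps were run here with limma 3.58.1 in R 4.3.3 (normexp offset 50), separately for each experiment. On 6 of 38 arrays a few spots with very high local background broke the normexp fit. Local backgrounds over 2 times the median of the array and channel were therefore set to that median (0 to 75 spots a channel), a step chosen after seeing the data. The resulting ratios correlated with the deposited ones at r between 0.981 and 0.9995. The direction is Cy5 over Cy3, sample over reference, and no dye swap was made.

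The brightest probe stood for a gene. 23082 probes were named through an accession of the RefSeq table and 18092 kept the name in the file. Groups of an experiment shared 1 limma model, with Benjamini-Hochberg adjustment over 28781 genes, and a call needed an adjusted p below 0.05 and a log2 difference of at least 1. The test was checked on simulated data with independent noise and no slide effects. Changes were added there only to genes outside the most variable ones, so the check does not cover genes that vary most. The number of arrays limits the precision. Named genes were the 10 highest and 5 lowest by Pearson r with Pou3f1 in each experiment, the 5 highest after group means were removed, the POU family, chosen list genes with up to 4 called members in each direction, and genes within 500 kb. Pou3f1, these lists and these rules were chosen with earlier results of these data known. Alternatives are given in the closing section.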

Additional observations from a re-analysis of the deposited data

Results flagged for a closer look

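In the carcinoma group, carcinoma 6 stood apart with a Pou3f1 log2 ratio of 2.11, while the other carcinomas lay between 3.28 and 3.84. Its gap to the nearest sample was 0.676 of the group's range, above Dixon's 95% critical value for 6 samples. All 7 groups were tested in this way, and chance marks about 1 in 20 groups. Carcinoma 6 also had a macrophage mean of 4.68, and its normexp fit was one of the 6 that the background step changed. The part of either in its Pou3f1 level was not tested.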

How the results depend on the processing

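The chemotherapy differences of Pou3f1 kept their direction in all 15 alternatives besides leaving out single replicates: residual minus untreated ran from 1.71 to 2.17, relapsed minus residual from -1.23 to -0.62 and relapsed minus untreated from 0.85 to 1.55. With single replicates left out they ran from 1.94 to 2.30, -1.43 to -0.70 and 0.69 to 1.41. On the 1 slide that held both, 2 relapsed samples were 0.51 above 1 residual sample. The lower level in disseminated cells than in adenomas kept its call in 15 of 18 alternatives. It lost it with adenomas 3 and 4 left out together (-1.56, limma adjusted p = 0.135), with adenomas 2 and 3 left out together (-2.05, limma adjusted p = 0.0737) and at a threshold of 0.01 (-2.37, limma adjusted p = 0.0102). Both pairs were chosen after seeing the data. Leaving out single replicates gave -2.69 to -2.05, all called. The lower level in metastases than in adenomas kept its call in 8 of 17 alternatives. It lost it without normalization between arrays and with Aquantile (both -1.65, limma adjusted p = 0.0527), with the deposited ratios (-1.59, limma adjusted p = 0.0605), with only both groups in the fit (-1.80, limma adjusted p = 0.0914), at a threshold of 0.01 (-1.80, limma adjusted p = 0.0360), without the arrays whose background fit changed (-1.11, limma adjusted p = 0.290), without adenomas 3 and 4 (-0.99, limma adjusted p = 0.336) and without adenomas 2 and 3 (-1.48, limma adjusted p = 0.160). Leaving out single replicates gave -2.24 to -1.43, with 5 of 10 called. The cause was not tested. With local backgrounds as given, disseminated minus adenoma was -2.85 and metastases minus adenoma -2.31, both called. The other 4 progression comparisons passed in no alternative. Slide as a fixed block could not be fitted for the 4 progression comparisons that lie across slides. With the replicate number as a block, metastases minus adenoma was -1.80 (limma adjusted p = 0.0533), the only call of Pou3f1 that the block changed; over all genes it moved the residual minus untreated count from 29 to 11 and the relapsed minus untreated count from 3 to 0, and no other comparison's count by more than 1.5 times. Same-numbered samples deviated together (r above 0.1) in 6 of 14 and 8 of 31 pairs. Their median r was 0.04 in chemotherapy and -0.02 in progression, against 0.01 and -0.02 for other pairs. The labels give no pairing and these values cannot settle whether some numbers pair samples, so the main model used none. Of the top 10 genes that follow Pou3f1, 6 stayed in the chemotherapy arrays with Spearman's rho and 5 without normalization between arrays; in progression 3 and 6 stayed, and 3 and 4 without each pair of adenomas.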
